A study of Homo sapiens with 9 samples.

Results

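Cholesterol and fatty acid synthesis were followed through 30 genes, chosen by name as the enzymes of both pathways with their transcriptional regulators, sterol sensors and 1 sterol carrier. The deposited table held exactly 1 row for each of the 30, among 30672 genes in all; SC5D is listed there under its older name SC5DL. Of the 30, 17 encode enzymes of the sterol arm, 5 encode regulators or a carrier and 8 encode enzymes of the fatty acid arm.

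All samples were HCC4006, an established human line from a lung adenocarcinoma with a mutated gene for the epidermal growth factor receptor (EGFR). Total RNA was measured on 9 Illumina arrays, 3 in each of 3 groups. Inhibitor cells had gefitinib, an EGFR kinase inhibitor, for 6 months in combination with SB431542, which blocks the type I TGFβ receptor kinase. Resistant cells had rising concentrations of gefitinib alone for 6 months, and parental cells are the starting line, with no treatment named in the labels. The sample titles call the inhibitor cells gefitinib resistant and inhibitor treated, so the order of the compounds is not settled by the labels. The labels do not say whether the arrays of a group came from separate cultures or whether a compound was present at harvest, so p-values measure the spread between arrays, and that spread could be technical. SB431542 was not given alone in any group and no cells were kept 6 months without gefitinib, so the compounds, selection and time in culture cannot be told apart.

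Cholesterol is built from acetyl-CoA through mevalonate, farnesyl pyrophosphate, squalene and lanosterol, and fatty acids are built from the same acetyl-CoA through malonyl-CoA and then elongated and desaturated. Genes of both arms are switched on by the SREBP transcription factors, which SREBF1 and SREBF2 encode. When sterols are plentiful, the INSIG proteins hold the SREBPs with their escort SCAP in the endoplasmic reticulum; when sterols are short, the SREBPs move to the Golgi, are cut and enter the nucleus. INSIG1 is itself a classical SREBP target, and growth factor signalling through AKT is known to raise SREBP activity in many tumour cells.

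Values are linear intensities that had been quantile-normalized before deposit, with background left in. Background was approximated by 387 olfactory receptor rows, whose 95th percentile was 90.4, and all 30 genes had a group mean above that level. Changes are differences of mean log2 intensity with their standard error, tested in limma with Benjamini-Hochberg adjustment over the 30672 genes; a gene is called at an adjusted p under 0.05. Within groups, array pairs correlated at 0.996 to 0.998 across genes. Inhibitor replicate 2 stood apart, at 0.99 and 0.991 with the other inhibitor arrays. Counts over the 30 genes are therefore also given without it, as are the values of those whose calls changed. The line's epithelial and lung markers were above background in all groups (7 of 7), although NAPSA, at 94.2 in inhibitor and 98.8 in resistant cells against 1002 in parental cells, was near it in both treated groups. Of 5 leukocyte markers, 2 were above background. The defining PTPRC and CD3E lay at background in all groups, while CD14 averaged 164 in inhibitor cells, 178 in resistant cells and 536 in parental cells and CD68 averaged 1142, 1489 and 1034 in inhibitor, resistant and parental cells. In resistant against parental cells CD68 rose (0.52) and CD14 fell (-1.59). The summed intensity of the 5 ran between 1387 and 1886 in inhibitor cells, 1865 and 1954 in resistant cells and 1771 and 1882 in parental cells. The part of these markers in the results was not tested.

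Promoter windows of 6 genes that the results turn on are shown here, because SREBPs and their partner NF-Y are known to act through short motifs close to the start of such genes. RefSeq (GRCh38.p14) windows from 250 bases before to 50 after a start were available for 26 of the 30 genes. The 250 upstream bases are printed 5′ to 3′ on the gene's strand. Capitals mark either the letters CACNCCAC, taken from the sterol regulatory element, or the NF-Y box CCAAT, on either strand. Where a gene had several windows, the one with the most matches is printed. The windows are HMGCS1 at chr5:43313413-43313662 (minus strand), IDI1 at chr10:1048887-1049136 (minus), INSIG1 at chr7:155297628-155297877 (plus), SCD at chr10:100346983-100347232 (plus), INSIG2 at chr2:118088221-118088470 (plus) and SREBF1 at chr17:17836987-17837236 (minus).
HMGCS1: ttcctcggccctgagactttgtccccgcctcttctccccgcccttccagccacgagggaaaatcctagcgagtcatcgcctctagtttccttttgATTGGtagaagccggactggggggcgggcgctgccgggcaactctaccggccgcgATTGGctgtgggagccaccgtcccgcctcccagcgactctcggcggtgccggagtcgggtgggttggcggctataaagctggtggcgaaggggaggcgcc
IDI1: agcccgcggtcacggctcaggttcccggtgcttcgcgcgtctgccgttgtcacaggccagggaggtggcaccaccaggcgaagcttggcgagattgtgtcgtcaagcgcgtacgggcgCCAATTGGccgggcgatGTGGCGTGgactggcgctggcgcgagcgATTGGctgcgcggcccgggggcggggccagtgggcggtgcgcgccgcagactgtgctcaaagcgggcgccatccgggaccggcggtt
INSIG1: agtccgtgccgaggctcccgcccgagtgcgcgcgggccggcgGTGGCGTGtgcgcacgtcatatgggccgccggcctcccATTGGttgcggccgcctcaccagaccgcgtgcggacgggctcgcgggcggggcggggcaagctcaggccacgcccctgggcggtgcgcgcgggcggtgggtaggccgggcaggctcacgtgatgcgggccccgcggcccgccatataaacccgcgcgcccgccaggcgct
SCD: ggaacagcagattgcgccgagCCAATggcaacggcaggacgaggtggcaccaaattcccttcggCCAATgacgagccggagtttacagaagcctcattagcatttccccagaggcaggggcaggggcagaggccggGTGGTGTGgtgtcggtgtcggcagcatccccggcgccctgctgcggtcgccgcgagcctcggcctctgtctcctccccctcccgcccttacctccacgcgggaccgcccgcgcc
INSIG2: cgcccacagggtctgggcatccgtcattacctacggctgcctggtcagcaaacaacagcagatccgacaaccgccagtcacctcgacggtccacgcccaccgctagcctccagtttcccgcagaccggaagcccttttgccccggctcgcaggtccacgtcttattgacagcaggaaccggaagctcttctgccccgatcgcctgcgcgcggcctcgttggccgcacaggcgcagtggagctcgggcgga
SREBF1: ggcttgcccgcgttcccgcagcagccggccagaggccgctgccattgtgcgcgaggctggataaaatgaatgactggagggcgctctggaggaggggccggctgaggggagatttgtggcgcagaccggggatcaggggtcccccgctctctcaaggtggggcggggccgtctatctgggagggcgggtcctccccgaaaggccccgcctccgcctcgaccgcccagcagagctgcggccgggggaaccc

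The match to CACNCCAC began 115 bases upstream of the IDI1 start of the printed window, 114 bases upstream of the SCD start and 208 bases upstream of the INSIG1 start. HMGCS1 held 2 NF-Y boxes and no such match, and the printed INSIG2 and SREBF1 windows held neither. In full windows, CACNCCAC was found for 6 of 26 genes (ACACA, IDI1, INSIG1, SC5D, SCD and SREBF2, 23.1%), against 7.05% of 27305 genes with a window. A gene was counted if any of its windows held a match, so genes with several windows had more chances. For IDI1 and ACACA, the other windows held no such match. The longer form TCACNCCAC, which contains the shorter one, was found for SREBF2 (1 of 26), against 1.39% of all genes. CCAAT was found for 20 of 26 (76.9%), against 39.7% of all genes. The E-box CACGTG was found for 3 of 26 (11.5%, against 8.77%) and the GC box GGGCGG for 25 of 26 (96.2%, against 48.3%). CCAAT was present for 8 of the 12 genes with a window that were lower in resistant cells and for 12 of the other 14. A match is a description of letters and not a measured binding site.

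In resistant against parental cells, 14 of the 30 genes fell (46.7%) and 2 rose (6.67%), while 14 were not called. Among all genes tested, 10.2% were called lower and 10.2% higher; among the 18092 genes above background in at least 1 group, 17.1% were called lower and 17.1% higher. The genes that fell came from every role: 7 of the 17 sterol enzymes, 3 of the 5 regulators and 4 of the 8 fatty acid enzymes. With background left in, SCD showed the largest fall of the 30, and ACLY and ELOVL6 were the 2 that rose. Over the alternative settings described below, the lowest value of SREBF1 (-1.36) was under the lowest of SCD (-1.29). The rank of SCD therefore depends on the setting. The median log2 change over the 30 was -0.34, against 0.00 over all genes. Without inhibitor replicate 2, which enters here only through the shared spread, 17 fell and 2 rose. Over all the alternatives tried, 12 to 17 fell. Without resistant replicate 1 or 2, or parental replicate 1 or 2, 0 rose.

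In inhibitor against resistant cells, 4 of the 30 genes rose (13.3%) and 6 fell (20%), while 20 were not called. Among all genes, 8.68% were called higher and 8.81% lower; among genes above background, 14.5% were called higher and 14.8% lower, so the counts of the 30 were near this background. No sterol enzyme rose and 3 of 17 fell, whereas the 4 that rose were SREBF1, INSIG2, SCD and FADS2. The median log2 change of the 30 was -0.04, against 0.00 over all genes. Without inhibitor replicate 2, 4 rose and 6 fell.

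In inhibitor against parental cells, 12 of the 30 genes fell (40%) and 0 rose. Among all genes, 7.79% were called lower and 7.13% higher; among genes above background, 13.1% were called lower and 11.9% higher. The 12 comprised 8 of the 17 sterol enzymes, INSIG1 and STARD4 among the regulators, and ACSS2 and SCD of the fatty acid arm. The median log2 change was -0.21, against 0.00 over all genes. Without inhibitor replicate 2, 16 fell and 0 rose. Over all the alternatives tried, 9 to 16 fell. Each pair of these comparisons shares 1 group of arrays, so they are not independent of each other. Because these are bulk RNA samples, fewer cells expressing a gene and less RNA per cell cannot be told apart.

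**Figure D1:**
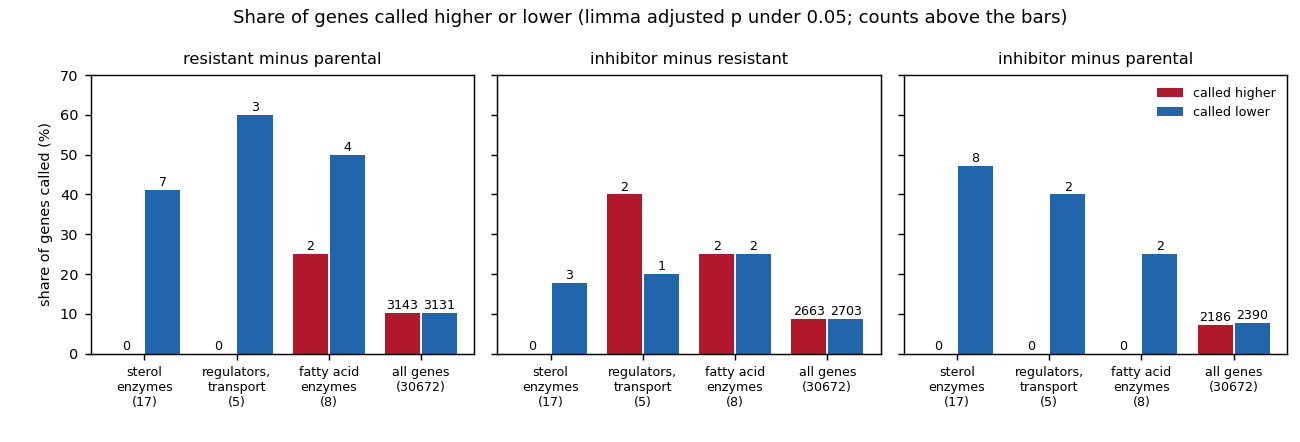
Share of genes called higher (red) or lower (blue) at a limma adjusted p under 0.05, in percent, for the sterol enzymes, the regulators and carrier, the fatty acid enzymes and all genes, with the number of genes above each bar. Sterol enzymes have blue bars (7, 3 and 8 genes) and no red bar in any of the 3 comparisons.

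**Figure D2:**
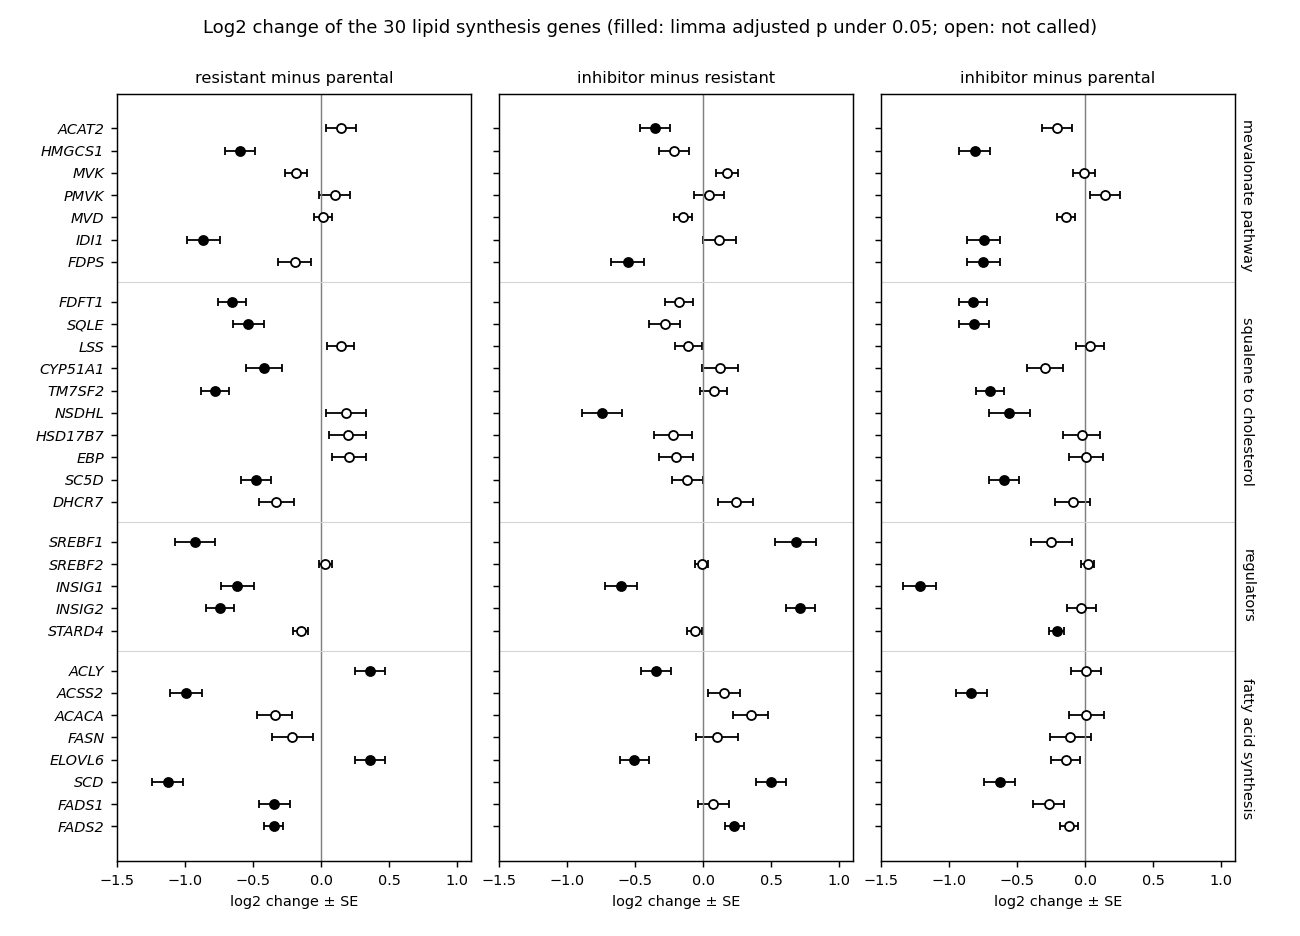
Log2 change ± SE of each of the 30 genes in the 3 comparisons, grouped by role; filled points were called and open points were not. INSIG1 lies to the left in all 3 panels, whereas INSIG2 and SREBF1 lie left in resistant minus parental and right in inhibitor minus resistant cells.

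The mevalonate pathway runs from acetyl-CoA to farnesyl pyrophosphate, and 3 of its 7 enzymes here carried the largest changes: HMGCS1, IDI1 and FDPS. HMGCS1, which makes HMG-CoA, read 1054, 838 and 1036 in inhibitor cells, 1192, 1124 and 1070.0 in resistant cells and 1682, 1762 and 1672 in parental cells. Every treated array lay below every parental array. HMGCS1 fell in resistant against parental cells (-0.60 ± 0.11, adjusted p = 0.000515) and in inhibitor against parental cells (-0.81 ± 0.11, adjusted p = 3.23e-05). The inhibitor against resistant difference of -0.22 was not called (adjusted p = 0.243).

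IDI1, the isomerase that readies isoprene units for condensation, read 539, 652 and 482 in inhibitor cells, 489, 501 and 539 in resistant cells and 892, 953 and 943 in parental cells. Both treated groups lay below the parental arrays and overlapped each other. IDI1 fell in resistant against parental cells (-0.87 ± 0.12, adjusted p = 1.99e-05) and in inhibitor against parental cells (-0.75 ± 0.12, adjusted p = 0.000177), with a difference of 0.12 between the treated groups (adjusted p = 0.621).

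FDPS behaved otherwise. This synthase of farnesyl pyrophosphate, the branch point to sterols and to protein prenylation, read 509, 491 and 576 in inhibitor cells, 771, 745 and 793 in resistant cells and 1019.7, 854 and 784 in parental cells. The inhibitor arrays were the lowest, and the resistant and parental arrays overlapped. FDPS fell in inhibitor against resistant cells (-0.55 ± 0.12, adjusted p = 0.00256) and in inhibitor against parental cells (-0.75 ± 0.12, adjusted p = 0.000167), while its change of -0.19 in resistant against parental cells was not called (adjusted p = 0.331).

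ACAT2, the cytosolic thiolase that starts the pathway, averaged 1193 ± 135 in inhibitor cells, 1522 ± 65.2 in resistant cells and 1375 ± 53.3 in parental cells (SD, n = 3 each). It fell in inhibitor against resistant cells (-0.36 ± 0.11, adjusted p = 0.0282). That call was lost without inhibitor replicate 2 (adjusted p = 0.0594) and without resistant replicate 1, 2 or 3 (adjusted p = 0.0568, 0.114 and 0.0927). Background subtraction also ended it (adjusted p = 0.0538). The kinases MVK and PMVK and the decarboxylase MVD, which turn mevalonate into isopentenyl pyrophosphate, were called in no comparison, with changes between -0.18 and 0.18. MVK was called without resistant replicate 3, lower in resistant against parental cells (-0.30, adjusted p = 0.00241) and higher in inhibitor against resistant cells (0.29, adjusted p = 0.00404). MVK averaged 113 in inhibitor cells, 100.4 in resistant cells and 113 in parental cells. MVD averaged 117 in inhibitor cells, 130.4 in resistant cells and 129 in parental cells. Both lay close enough to background that any change would be understated.

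Beyond farnesyl pyrophosphate, 5 of 10 enzymes fell in resistant against parental cells and 5 of 10 fell in inhibitor against parental cells. FDFT1, squalene synthase and the first step committed to sterols, read 2743, 2203 and 2923 in inhibitor cells, 3098, 3114 and 2636 in resistant cells and 4385, 4623 and 4877 in parental cells. No treated array reached a parental one. It fell in resistant against parental cells (-0.65 ± 0.10, adjusted p = 7.63e-05) and in inhibitor against parental cells (-0.83 ± 0.10, adjusted p = 8.22e-06).

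SQLE, squalene epoxidase, read 730.5, 748 and 643 in inhibitor cells, 871, 846 and 858 in resistant cells and 1136, 1241 and 1366 in parental cells. The 3 groups did not overlap, with inhibitor cells lowest. SQLE fell in resistant against parental cells (-0.54 ± 0.11, adjusted p = 0.00148) and in inhibitor against parental cells (-0.82 ± 0.11, adjusted p = 3.07e-05). Its inhibitor against resistant change of -0.28 was not called (adjusted p = 0.103), but was without inhibitor replicate 2 (-0.32, adjusted p = 0.0345).

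TM7SF2, a sterol reductase, read 215, 239 and 216 in inhibitor cells, 219.5, 207 and 208 in resistant cells and 361, 414 and 319 in parental cells. The treated groups overlapped each other and lay below all parental arrays. Its falls were -0.78 ± 0.10 in resistant against parental cells (adjusted p = 8.47e-06) and -0.70 ± 0.10 in inhibitor against parental cells (adjusted p = 5.16e-05).

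SC5D, the desaturase near the end of the pathway, read 466, 490.0 and 409.7 in inhibitor cells, 509, 508 and 461 in resistant cells and 651, 708 and 702 in parental cells. Again the treated groups overlapped each other and not the parental arrays. It changed by -0.48 ± 0.11 in resistant against parental cells (adjusted p = 0.00333) and by -0.60 ± 0.11 in inhibitor against parental cells (adjusted p = 0.000729).

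NSDHL, which helps to remove the methyl groups at carbon 4 of the sterol ring, had a pattern like that of FDPS in its calls. It read 955, 623 and 974 in inhibitor cells, 1381, 1504 and 1305 in resistant cells and 1289.5, 1304 and 1098 in parental cells. The inhibitor arrays were below all others, and the lowest was replicate 2. NSDHL fell in inhibitor against resistant cells (-0.74 ± 0.15, adjusted p = 0.00113) and in inhibitor against parental cells (-0.56 ± 0.15, adjusted p = 0.0129). Without inhibitor replicate 2, these were -0.53 (adjusted p = 0.000545) and -0.35 (adjusted p = 0.0223). The call against parental cells was lost without parental replicate 1 or 2 (adjusted p = 0.0540 and 0.0642). With background subtracted, neither fall was called (adjusted p = 0.0626 against resistant cells and 0.159 against parental cells).

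CYP51A1, the lanosterol demethylase, averaged 906 ± 175 in inhibitor cells, 824 ± 71.4 in resistant cells and 1100.4 ± 88.3 in parental cells (SD, n = 3 each). It fell in resistant against parental cells (-0.42 ± 0.13, adjusted p = 0.0308). That call was lost without resistant replicate 1, 2 or 3 (adjusted p = 0.0574, 0.158 and 0.0607), as well as without parental replicate 1 or 2 (adjusted p = 0.120 and 0.0817), and with background subtracted (adjusted p = 0.152). Its change of -0.29 in inhibitor against parental cells was not called (adjusted p = 0.177), but was without inhibitor replicate 2 (-0.45, adjusted p = 0.00411).

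LSS, EBP, HSD17B7 and DHCR7 were called in no comparison. LSS, which closes squalene epoxide into lanosterol, averaged 268 ± 17.5 in inhibitor cells, 289 ± 9.23 in resistant cells and 262 ± 28.4 in parental cells (SD, n = 3 each). The isomerase EBP changed by 0.20 in resistant against parental cells and by -0.20 in inhibitor against resistant cells. HSD17B7, a partner of NSDHL, has a near-identical pseudogene, so its values are uncertain. DHCR7, the reductase of the last step, changed by -0.33 in resistant against parental cells (adjusted p = 0.0851). It was called without inhibitor replicate 2 (adjusted p = 0.0139), without parental replicate 1 (adjusted p = 0.0327) and in a fit of only the groups compared (adjusted p = 0.0217).

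**Figure D3:**
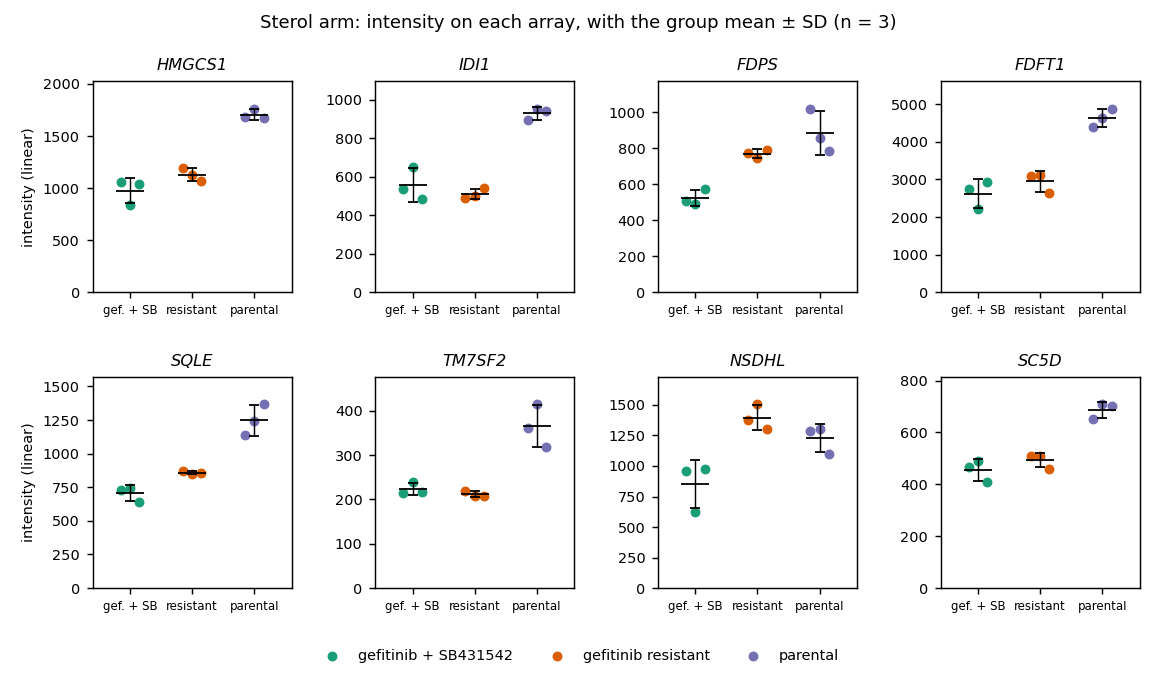
Linear intensity on each array for 8 sterol enzymes, with points for arrays and bars for the group mean ± SD (n = 3); inhibitor cells are labelled gef. + SB. HMGCS1, IDI1, FDFT1, SQLE, TM7SF2 and SC5D have all treated arrays below all parental arrays, whereas FDPS and NSDHL are low in inhibitor cells and overlap or exceed parental values in resistant cells.

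The regulators divided. SREBF1, which encodes the SREBP most tied to fatty acid synthesis, read 258, 402 and 309 in inhibitor cells, 191, 189.5 and 215 in resistant cells and 300.4, 417 and 429 in parental cells. Resistant arrays were the lowest, and inhibitor and parental arrays overlapped. SREBF1 fell in resistant against parental cells (-0.93 ± 0.15, a 1.90-fold reduction, adjusted p = 8.95e-05) and rose in inhibitor against resistant cells (0.68 ± 0.15, adjusted p = 0.00260). Without inhibitor replicate 2, the rise was 0.51 (adjusted p = 0.00427). With background subtracted, the rise was 1.03 and was not called (adjusted p = 0.0760). Its inhibitor against parental change of -0.25 was not called (adjusted p = 0.343), but was without inhibitor replicate 2 (-0.42, adjusted p = 0.0197).

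INSIG2, one of the paired retention proteins, read 523, 583 and 542 in inhibitor cells, 332, 351 and 320.3 in resistant cells and 574, 531 and 576 in parental cells. Resistant arrays again lay below all others, and inhibitor and parental arrays overlapped. INSIG2 fell in resistant against parental cells (-0.74 ± 0.11, adjusted p = 2.24e-05) and rose in inhibitor against resistant cells (0.71 ± 0.11, adjusted p = 4.95e-05), with an inhibitor against parental change of -0.03 (adjusted p = 0.923).

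INSIG1, its paralogue and the SREBP target named above, read 1072, 1002 and 1096 in inhibitor cells, 1449, 1730.0 and 1645 in resistant cells and 2062, 2538 and 2832 in parental cells. The 3 groups did not overlap and inhibitor cells were lowest. INSIG1 fell in resistant against parental cells (-0.62 ± 0.12, adjusted p = 0.000659), in inhibitor against resistant cells (-0.60 ± 0.12, adjusted p = 0.00106) and in inhibitor against parental cells (-1.22 ± 0.12, a 2.33-fold reduction, adjusted p = 3.73e-07). It was the 1 gene of the 30 called lower in all 3 comparisons. In inhibitor against resistant cells INSIG1 and INSIG2 were thus called in opposite directions.

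SREBF2, which encodes the SREBP most tied to sterol synthesis, averaged 98.1 ± 2.28 in inhibitor cells, 98.9 ± 3.29 in resistant cells and 96.9 ± 3.91 in parental cells (SD, n = 3 each). These values lie just above the background stand-in, so this row says little about SREBF2 in any group. STARD4, a cytosolic sterol carrier, was also near background, at 97.4 ± 4.14 in inhibitor cells, 102 ± 1.92 in resistant cells and 113 ± 7.80 in parental cells. It fell in inhibitor against parental cells (-0.21 ± 0.06, adjusted p = 0.0115), a call lost without inhibitor replicate 3 (adjusted p = 0.0657) or parental replicate 3 (adjusted p = 0.0868), and with background subtracted (-0.75, adjusted p = 0.0685). Its change of -0.15 in resistant against parental cells was not called (adjusted p = 0.0681), but was without inhibitor replicate 2 (adjusted p = 0.0466) or parental replicate 1 (adjusted p = 0.0327).

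The summed intensity of the 7 epithelial and lung markers was, like SREBF1 and INSIG2, lowest in resistant cells, although single markers differed. It ran between 20802 and 26547 in inhibitor cells, between 7312 and 7627 in resistant cells and between 15680 and 17571 in parental cells. Of the 7, 5 fell and 2 rose in resistant against parental cells, 6 rose in inhibitor against resistant cells, and 5 rose and 1 fell in inhibitor against parental cells, where neither SREBF1 nor INSIG2 was called. Their part in the lipid gene results was not tested.

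In the fatty acid arm, SCD and ACSS2 changed most with background left in. SCD, the desaturase that makes monounsaturated fatty acids, read 3286, 3658 and 3277 in inhibitor cells, 2423, 2515 and 2297 in resistant cells and 4213, 5443 and 6369 in parental cells. The groups did not overlap, with resistant cells lowest and inhibitor cells between. SCD fell in resistant against parental cells (-1.13 ± 0.11, a 2.19-fold reduction, adjusted p = 2.57e-07), rose in inhibitor against resistant cells (0.50 ± 0.11, adjusted p = 0.00347) and fell in inhibitor against parental cells (-0.63 ± 0.11, adjusted p = 0.000479). The parental mean of 5342 lies near the 99th percentile of the table (5549), a range in which the scale could be compressed. With background subtracted, the fall against parental cells in resistant cells kept its call. The rise in inhibitor against resistant cells (0.51, adjusted p = 0.0991) and the fall in inhibitor against parental cells (-0.64, adjusted p = 0.0515) lost theirs. Both estimates stayed almost as they were, so these calls were lost with larger p-values and not with smaller changes.

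ACSS2, which makes acetyl-CoA from acetate, read 374, 300.4 and 365 in inhibitor cells, 331, 312 and 288 in resistant cells and 553, 642 and 658 in parental cells. The treated groups overlapped each other and lay below every parental array. ACSS2 fell in resistant against parental cells (-0.99 ± 0.12, a 1.99-fold reduction, adjusted p = 2.36e-06) and in inhibitor against parental cells (-0.84 ± 0.12, adjusted p = 3.42e-05).

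The 2 genes that rose in resistant cells also belong to this arm. ELOVL6, which elongates palmitate, read 1054, 898 and 1105 in inhibitor cells, 1464, 1482 and 1379 in resistant cells and 1106, 1106 and 1156 in parental cells. Resistant arrays were the highest. ELOVL6 rose in resistant against parental cells (0.36 ± 0.11, adjusted p = 0.0224) and fell in inhibitor against resistant cells (-0.51 ± 0.11, adjusted p = 0.00237). The rise was lost without resistant replicate 1 or 2 (adjusted p = 0.0857 and 0.0910), as well as without parental replicate 1 or 2 (adjusted p = 0.0571 and 0.0749).

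ACLY, which splits citrate into cytosolic acetyl-CoA, averaged 1064 ± 42.4 in inhibitor cells, 1358 ± 96.0 in resistant cells and 1061 ± 95.1 in parental cells (SD, n = 3 each). It rose in resistant against parental cells (0.36 ± 0.11, adjusted p = 0.0246) and fell in inhibitor against resistant cells (-0.35 ± 0.11, adjusted p = 0.0325). The rise was lost without resistant replicate 1 or 2 (adjusted p = 0.13 and 0.0823), as well as without parental replicate 1 or 2 (adjusted p = 0.09 and 0.0958). The fall was lost without inhibitor replicate 1 or 3 (adjusted p = 0.0541 and 0.0669), as well as without resistant replicate 1 or 2 (adjusted p = 0.158 and 0.104).

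The 2 central enzymes of the arm were not called. ACACA, which makes malonyl-CoA, read 633, 515 and 653 in inhibitor cells, 478, 425 and 509 in resistant cells and 518, 646 and 629 in parental cells. Resistant arrays lay below the others, yet the changes of -0.34 in resistant against parental cells and 0.35 in inhibitor against resistant cells missed the threshold (adjusted p = 0.0703 and 0.0722). Without inhibitor replicate 2 both were called (adjusted p = 0.0134 and 0.00515), as they were with dim genes left out (adjusted p = 0.0441 and 0.0456). The first was also called without parental replicate 1 (adjusted p = 0.0285), with cyclic loess scaling (adjusted p = 0.0388) and in a fit of only the groups compared (adjusted p = 0.0221).

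FASN, which makes palmitate, read 1777, 1848 and 1831 in inhibitor cells, 1773, 1566 and 1759.7 in resistant cells and 1393, 2165 and 2511 in parental cells. Parental replicate 1 was low and the other two parental arrays were above all treated arrays. FASN changed by -0.21 in resistant against parental cells (adjusted p = 0.425) and by -0.11 in inhibitor against parental cells (adjusted p = 0.754). Without parental replicate 1, the changes were -0.46 (adjusted p = 0.00574) and -0.36 (adjusted p = 0.0393), so 1 array decides both calls.

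With background left in, the desaturases of polyunsaturated fatty acids, FADS1 and FADS2, fell less than SCD in resistant cells by their estimates. This difference was not tested. FADS2 lay near background, and with background subtracted its fall was -1.19. The fall of SCD ranged from -1.29 to -0.99 over the alternatives tried. Both ends of that range came from leaving out single arrays, so the settings are unlike. FADS1 fell in resistant against parental cells (-0.34 ± 0.11, adjusted p = 0.0358), with means of 949 ± 96.2 in inhibitor cells, 899.7 ± 56.9 in resistant cells and 1141 ± 46.9 in parental cells (SD, n = 3 each). The call was lost without resistant replicate 1 or 3 (adjusted p = 0.151 and 0.109), as well as without parental replicate 1, 2 or 3 (adjusted p = 0.106, 0.0649 and 0.0851). In inhibitor against parental cells FADS1 was not called (-0.27, adjusted p = 0.135). It was called lower there without inhibitor replicate 2 (-0.35, adjusted p = 0.0189) and with no intensity trend (-0.27, adjusted p = 0.0405).

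FADS2 read 119.9, 144 and 119.7 in inhibitor cells, 109, 111 and 106 in resistant cells and 136, 139 and 139 in parental cells. Resistant arrays were the lowest, and inhibitor and parental arrays overlapped. It fell in resistant against parental cells (-0.35 ± 0.07, adjusted p = 0.000704), and with background subtracted the change was -1.19. It rose in inhibitor against resistant cells (0.23 ± 0.07, adjusted p = 0.0232), but inhibitor replicate 2 stood above the other inhibitor arrays. Without that array the change was 0.14 (adjusted p = 0.103), and the call was also lost without resistant replicate 1 or 3 (adjusted p = 0.0691 and 0.0925). Background subtraction gave 0.83, which was not called (adjusted p = 0.0704). In inhibitor against parental cells FADS2 was called only without inhibitor replicate 2 among the settings tried (-0.21, adjusted p = 0.0141).

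**Figure D4:**
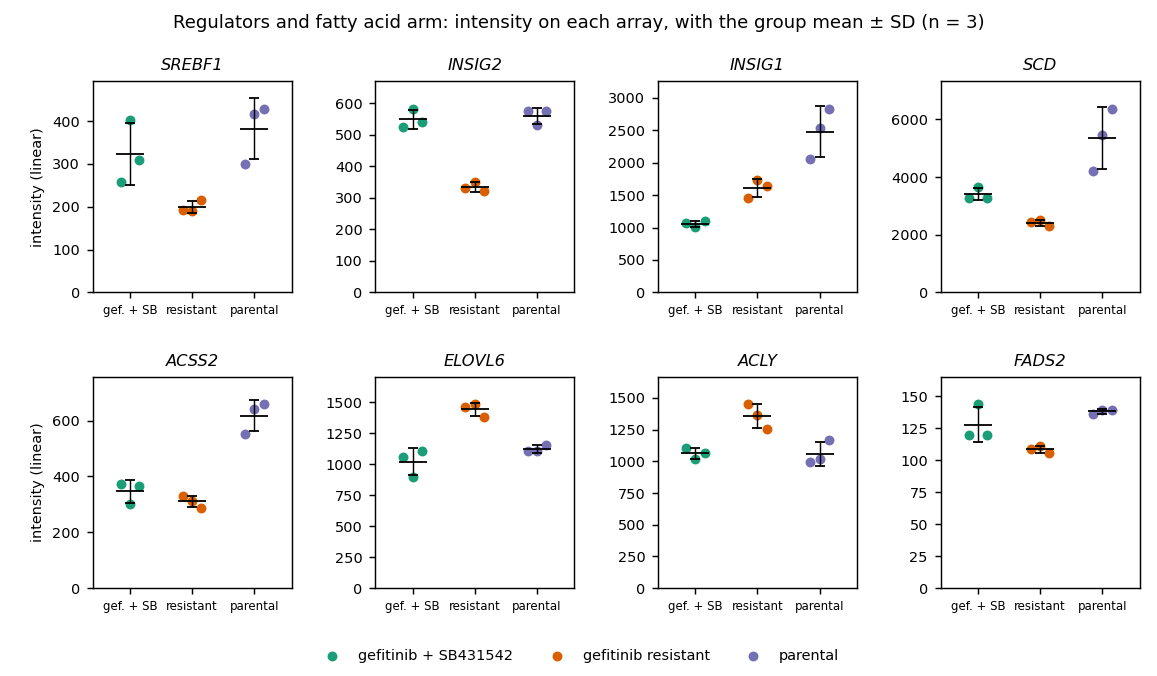
Linear intensity on each array for SREBF1, INSIG2, INSIG1 and 5 fatty acid genes, with points for arrays and bars for the group mean ± SD (n = 3); inhibitor cells are labelled gef. + SB. SREBF1, INSIG2 and SCD are lowest in resistant cells, INSIG1 is lowest in inhibitor cells, ACSS2 is low in both treated groups, and ELOVL6 and ACLY are highest in resistant cells.

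Read across the 3 comparisons, the calls fell into a few patterns. The most common, in 7 genes, was lower in both treated groups than in parental cells with no call between the treated groups: HMGCS1, IDI1, FDFT1, SQLE, TM7SF2, SC5D and ACSS2. In 3 genes (SREBF1, INSIG2 and FADS2) the resistant cells were lower than both other groups, which were not called apart. Without inhibitor replicate 2, SREBF1 and FADS2 were called lower in inhibitor than in parental cells, and FADS2 lost its call between the treated groups. SCD differed from the 3 in staying lower in inhibitor than in parental cells. ACLY and ELOVL6 had the opposite order, with resistant cells higher than both other groups. Both ACLY calls and the rise of ELOVL6 in resistant cells were lost when certain single arrays were left out. FDPS and NSDHL were lower in inhibitor cells than in both other groups. In total 10 genes were called in no comparison: MVK, PMVK, MVD, LSS, HSD17B7, EBP, DHCR7, SREBF2, ACACA and FASN. Differences between these patterns were not tested.

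Other genes of the same biology were read from lists of neighbouring pathways. Among all genes above background, 34.2% were called in either direction in resistant against parental cells, 29.2% in inhibitor against resistant cells and 25% in inhibitor against parental cells, and list counts near these shares are not results about a list. Most of the lists also hold genes not above background, which these shares leave out. Of 15 other genes of sterol and isoprenoid synthesis, 2 fell and 0 rose in resistant against parental cells, 1 rose and 4 fell in inhibitor against resistant cells, and 2 fell in inhibitor against parental cells. MSMO1, the methyl sterol oxidase that works with NSDHL, averaged 1320.0 ± 50.1 in inhibitor cells, 1254 ± 25.3 in resistant cells and 2319 ± 119 in parental cells (SD, n = 3 each). Like HMGCS1 and IDI1, it was lower in both treated groups, by -0.89 ± 0.10 in resistant against parental cells (adjusted p = 9.02e-07) and -0.81 ± 0.10 in inhibitor against parental cells (adjusted p = 5.08e-06).

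Of 11 genes of SREBP processing and sterol sensing, 1 rose and 1 fell in resistant against parental cells, 1 rose and 2 fell in inhibitor against resistant cells, and 0 were called in inhibitor against parental cells. Every change called was under 0.5 in size on the log2 scale. The largest in resistant against parental cells was that of ERLIN1, which takes part in the turnover of the sterol machinery (0.33 ± 0.08, adjusted p = 0.00394; 0.66 with background subtracted).

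Of 15 genes of sterol uptake, storage and trafficking, 4 rose and 4 fell in resistant against parental cells. In inhibitor against resistant cells 3 rose and 4 fell, and in inhibitor against parental cells 5 rose and 3 fell. NPC1, which exports cholesterol from the lysosome, averaged 461 ± 39.4 in inhibitor cells, 619 ± 64.1 in resistant cells and 330.5 ± 46.5 in parental cells (SD, n = 3 each), and it rose in resistant against parental cells (0.91 ± 0.13, adjusted p = 1.73e-05). LIPA, the lysosomal lipase that frees cholesterol from its esters, fell in resistant against parental cells (-0.68 ± 0.12, adjusted p = 0.000213) and rose in inhibitor against resistant cells (1.06 ± 0.12, adjusted p = 1.64e-06). TMEM97, a sterol-regulated membrane protein, fell in inhibitor against resistant cells (-0.90 ± 0.14, adjusted p = 0.000103) and in inhibitor against parental cells (-0.62 ± 0.14, adjusted p = 0.00433), the second of which was not called with background subtracted (adjusted p = 0.0966).

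Of 10 LXR genes and genes of oxysterols, 1 rose and 3 fell in resistant against parental cells, 2 rose and 3 fell in inhibitor against resistant cells, and 1 rose and 2 fell in inhibitor against parental cells. ABCA1, the cholesterol exporter that LXR switches on when sterols are plentiful, averaged 426 ± 34.1 in inhibitor cells, 844 ± 14.2 in resistant cells and 125 ± 5.46 in parental cells (SD, n = 3 each). It rose in resistant against parental cells (2.76 ± 0.10, 6.78-fold, adjusted p = 1.23e-13), fell in inhibitor against resistant cells (-0.99 ± 0.10, adjusted p = 4.89e-07) and rose in inhibitor against parental cells (1.77 ± 0.10, adjusted p = 1.76e-10). The parental level was close to background, so both changes against parental cells are understated; with background subtracted they were 4.28 in resistant cells and 3.12 in inhibitor cells. LPCAT3 and APOE, which LXR also activates in many cells, fell in resistant against parental cells (-0.58 ± 0.10 and -0.75 ± 0.07; APOE -2.23 with background subtracted), so the LXR genes did not move one way.

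Of 21 other genes of fatty acid synthesis and modification, 3 rose and 6 fell in resistant against parental cells, 5 rose and 1 fell in inhibitor against resistant cells, and 5 fell in inhibitor against parental cells. The elongase ELOVL7 averaged 155 ± 29.1 in inhibitor cells, 110.2 ± 6.35 in resistant cells and 207 ± 4.22 in parental cells (SD, n = 3 each), with changes of -0.91 ± 0.10 in resistant against parental cells (adjusted p = 5.70e-07) and 0.47 ± 0.10 in inhibitor against resistant cells (adjusted p = 0.00142), which were -2.32 and 1.43 with background subtracted. ME1, the malic enzyme that supplies NADPH for lipid synthesis, fell in resistant against parental cells (-0.75 ± 0.15, adjusted p = 0.000733) and in inhibitor against parental cells (-0.65 ± 0.15, adjusted p = 0.00381), the second of which was not called with background subtracted (adjusted p = 0.0884). ELOVL4, which makes very long chains, changed by -0.67 ± 0.10 in resistant against parental cells (adjusted p = 3.66e-05) and by -0.66 ± 0.10 in inhibitor against parental cells (adjusted p = 7.92e-05).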

How the data were processed

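Expression was measured on 9 Illumina arrays of HCC4006 cells. Per the labels' protocols, Trizol RNA was treated with DNase I on columns, amplified and labelled with biotin. The deposited series table holds 1 linear intensity per gene name and array, from 72.65 to 11566.7. The sorted values of the arrays were almost equal, so these deposited intensities were already quantile-normalized, and no value near 0 means that background was not subtracted. The sources used here do not give the scanner, the software or how probes were combined. Array medians were 91.1 to 91.3, and 3 arrays a group limit the precision.

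Of 34687 rows, 3270 that named only a UniGene cluster were left out. Older names were replaced through RefSeq (assembly GRCh38.p14, names only), in which 17757 rows matched a current symbol, 2669 a gene number and 3303 an older symbol, while 7688 kept their name. The brightest row of a gene was used where there were several (728 of 30672 genes; none of the 30 genes described). Intensities were taken to log2 above a floor of 16, below which there was no deposited value. Where background was subtracted, 85.2 was removed from each value, the median of the olfactory receptor values. Values then under 16 were raised to 16, so changes of rows near background depend on that floor in this setting. The model, in limma 3.58.1 (R 4.3.3), had a mean for each group across the 9 arrays, a variance prior that followed intensity and Benjamini-Hochberg adjustment; the procedure was tested on simulated data. Genes above background are those with a mean above 90.4 in at least 1 group. Figures were drawn with matplotlib 3.10.9.

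The 30 genes, the neighbouring lists and the tests were chosen with earlier results of these data known. Values of every array are given for genes called with a log2 change of at least 0.5, and for a few others chosen after their values were seen (ACACA, FASN and FADS2). From each neighbouring list, at most 3 called genes with the largest change in a comparison are named, with a mean above background; some of the genes so taken are not reported here, but the counts include them. The alternatives tried were no intensity trend, cyclic loess scaling, background subtracted, dim genes left out, the mean of rows, UniGene rows kept, a fit of only the groups compared, the replicate number as a block, and each array left out in turn. Replicate numbers were not used for pairing, because same-numbered arrays did not deviate together.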

Additional observations from a re-analysis of the deposited data

How the results depend on the processing

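For the 103 single-gene results that were called, 1617 recalculated values over the 17 alternatives kept the call and 134 lost it. For the 83 that were not called, 1371 stayed uncalled and 40 gained a call, and no called value changed sign. Both sets of results pool the 30 genes with genes picked from the neighbouring lists for large called changes. These counts therefore do not describe the 30 genes alone. The counts of sterol enzymes lower in resistant against parental cells (6 to 8) and lower in inhibitor against parental cells (7 to 9) moved little. The counts over all 30 genes were added as a result after seeing the data. With background subtracted, genes called lower in inhibitor against resistant cells were 1757 in place of 2703, and genes called higher in inhibitor against parental cells 1418 in place of 2186. In the same setting, inhibitor against resistant cells had 1 sterol enzyme lower, 1 regulator higher, 0 fatty acid enzymes higher and 1 of the 30 genes higher. The sterol enzymes ACAT2 and NSDHL lost their falls there, and SREBF1, SCD and FADS2 lost their rises. Inhibitor against parental cells had 1 regulator and 1 fatty acid enzyme lower, without STARD4 and SCD. None of these estimates was smaller in size than with background left in. The calls were thus lost with larger p-values and not with smaller changes. The fall of CYP51A1 in resistant against parental cells was lost likewise (-0.46, adjusted p = 0.152). Cyclic loess scaling left 1 fatty acid enzyme lower in inhibitor against resistant cells, since ACLY was lost (adjusted p = 0.0522). Same-numbered arrays had correlations of their deviations between -0.23 and 0.04, and 0 of the 9 arrays correlated best with their own number in both other groups. No pairing by number was thus visible, but 3 arrays a group are too few to exclude it. With the replicate block, 1 fatty acid enzyme and 1 of all 30 genes rose in resistant against parental cells, and 1 fatty acid enzyme fell in inhibitor against resistant cells. With each array left out in turn, resistant against parental cells had 0 to 2 fatty acid enzymes and 0 to 2 of the 30 genes higher. Inhibitor against resistant cells then had 0 to 1 sterol enzymes higher, 1 to 2 fatty acid enzymes higher and 1 to 2 lower, and inhibitor against parental cells had 1 to 3 regulators and 2 to 4 fatty acid enzymes lower. The causes of these moves were not tested. Rows near background, such as STARD4, MVK, MVD, FADS2 and parental ABCA1, would understate any change, and the row of SREBF2 says little in any group.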

Other observations

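Among genes that store, release or burn fatty acids, single genes changed in either direction. Of 21 genes of fatty acid activation and glycerolipids, 4 rose and 6 fell in resistant against parental cells, 3 rose and 3 fell in inhibitor against resistant cells, and 1 rose and 5 fell in inhibitor against parental cells. These are shares of 47.6%, 28.6% and 28.6% of all 21 genes, 18 of them above background. Among all genes above background the shares were 34.2%, 29.2% and 25%, so the inhibitor shares were near background. PLIN2, which coats lipid droplets, averaged 653 ± 83.0 in inhibitor cells, 1038 ± 49.3 in resistant cells and 590.1 ± 41.8 in parental cells (SD, n = 3 each). It rose in resistant against parental cells (0.82 ± 0.12, adjusted p = 3.47e-05) and fell in inhibitor against resistant cells (-0.68 ± 0.12, adjusted p = 0.000365). ACSL5, which activates fatty acids with coenzyme A, fell in resistant against parental cells (-0.76 ± 0.12, adjusted p = 8.85e-05), and its rise in inhibitor against resistant cells (0.51 ± 0.12, adjusted p = 0.00484) was lost with background subtracted (adjusted p = 0.0634). MGLL, which cleaves monoglycerides, rose in inhibitor against resistant cells (0.57 ± 0.11, adjusted p = 0.000821) and in inhibitor against parental cells (0.48 ± 0.11, adjusted p = 0.00431).

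Of 16 genes of fatty acid oxidation, 2 rose and 5 fell in resistant against parental cells, 1 rose and 4 fell in inhibitor against resistant cells, and 2 rose and 6 fell in inhibitor against parental cells. These are shares of 43.75%, 31.25% and 50% of all 16 genes, 15 of them above background. Beside the same 34.2%, 29.2% and 25%, the second was near background. ECI2, an isomerase that handles unsaturated fatty acids, averaged 869.8 ± 57.3 in inhibitor cells, 1419 ± 110 in resistant cells and 557 ± 44.3 in parental cells (SD, n = 3 each). It rose in resistant against parental cells (1.35 ± 0.11, 2.55-fold, adjusted p = 2.53e-08) and fell in inhibitor against resistant cells (-0.71 ± 0.11, adjusted p = 0.000142). PPARGC1A, a coactivator of oxidative metabolism, averaged 97.3 in inhibitor cells, 171 in resistant cells and 110.3 in parental cells, near background in inhibitor cells. It rose in resistant against parental cells (0.63 ± 0.07, adjusted p = 1.47e-06) and fell in inhibitor against resistant cells (-0.81 ± 0.07, adjusted p = 7.36e-08). With background subtracted the changes were 1.76 and -2.40. The inhibitor mean was then under the floor of 16, so the size of -2.40 depends on that floor.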
